A study of Mus musculus with 2 samples.

Results

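Medullary thymic epithelial cells (mTEC) transcribe many genes of peripheral organs and show their products to developing T cells. The 50 genes described here are such peripheral genes: digestive enzymes of the pancreas, pepsinogens, gastric lipase and gastrokines of the stomach, trefoil factors, mucins, and absorptive and brush border genes of the intestine. They were chosen by name from their known roles, with earlier results of these data known. All 50 had a line in both deposited tables, among 23411 genes in all. Poly-A RNA was compared between 1 library of MHC-II high mTEC and 1 library of MHC-II low mTEC. Both were sorted from the thymus of a pool of 3 B6 mice with no stated allele or treatment, and the labels used here gave no age. High surface MHC class II marks the more mature mTEC, and the series title names the deacetylase Sirt1 and Aire, the regulator that drives many peripheral genes in mTEC.

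The digestive tract uses these products in a fixed division of labour. Acinar cells of the pancreas secrete proteases, lipases and amylase, the stomach adds pepsins and a lipase, and enterocytes complete digestion with enzymes anchored in the brush border and then take up the products. Goblet and surface mucous cells cover the epithelium with mucins and trefoil factors. In the medulla, a part of these genes is induced by Aire, and a part marks mTEC subsets that carry transcription factors of gut or other lineages.

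The MHC-II high library held 138368535 reads on the 23411 genes and the MHC-II low library 56077479. Levels are given in CPM, read counts scaled to a common library total with the TMM method, and genes with a mean of at least 1 CPM over both libraries were compared. A gene is called higher or lower when the whole 95% counting interval of its ratio, MHC-II high over MHC-II low, lies beyond 2-fold. Since each group is a single library, no test can be made and no replicate error given: the intervals cover counting error only, and each difference is between these 2 libraries. The mature mTEC genes matched the labels: all 6 listed ones were called higher, with Aire at 571 CPM in the MHC-II high and 21.0 CPM in the MHC-II low library.

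Promoter sequence is shown first for genes whose start is marked by a TATA box. Of the 50 genes, 40 had an entry in the RefSeq promoter table of build GRCm38.p6, in 42 windows. The 6 letters TATAAA on the gene's own strand, beginning 20 to 40 bases before the start, stood in 9 of the 42 windows (21.4%), against 655 of all 32851 windows of the table (2.0%). Of the 9 genes with these letters 5 were called higher, and of the other 31 genes 14, those under the minimum included. The 60 bases before the start of 5 of the 9 genes follow, with TATAAA in capitals. They come from the stomach, pancreas, intestine, a membrane mucin and the liver-type fatty acid binding protein. All shown but Fabp1 were called higher, while Amy2a5, Cela1 and Muc4, which also have the letters, were not.
Pgc: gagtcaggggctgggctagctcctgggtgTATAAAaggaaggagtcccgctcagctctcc
Pnlip: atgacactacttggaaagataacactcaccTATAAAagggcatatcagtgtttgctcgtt
Mgam: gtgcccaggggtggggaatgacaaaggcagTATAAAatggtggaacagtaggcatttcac
Muc1: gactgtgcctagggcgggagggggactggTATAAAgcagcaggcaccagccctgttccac
Fabp1: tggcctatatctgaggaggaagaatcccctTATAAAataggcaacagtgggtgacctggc
In GRCm38.p6 these stretches lie on the plus strand at chr17:47726782-47726841 (Pgc), chr19:58670305-58670364 (Pnlip), chr6:40628771-40628830 (Mgam), chr3:89228996-89229055 (Muc1) and chr6:71199819-71199878 (Fabp1). Anpep, the only one of the 50 genes called lower, is among the 31 genes without such letters. As 14 of those 31 were called higher, the absence of the letters does not set Anpep apart. Its start is rich in G, as the last 60 bases show (chr7:79848211-79848270, minus strand).
Anpep: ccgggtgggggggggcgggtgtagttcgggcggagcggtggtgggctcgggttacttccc

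Letters of the binding motif of HNF4, a nuclear receptor of enterocytes and hepatocytes, were searched over the 250 bases before each start on both strands. CAAAGTCCA was present in 4 of the 42 windows (9.5%) and in 126 of all 32851 windows (0.4%). The stretches below show it in capitals, written along the gene's strand, where the last 3 carry the reverse letters TGGACTTTG.
Alpi: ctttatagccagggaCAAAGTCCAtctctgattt
Cela2a: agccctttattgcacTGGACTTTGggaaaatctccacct
Muc13: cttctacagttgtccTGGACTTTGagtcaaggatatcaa
Treh: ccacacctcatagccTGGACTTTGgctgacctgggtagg
They lie in GRCm38.p6 at chr1:87101607-87101640 (Alpi, minus strand), chr4:141826074-141826112 (Cela2a, minus strand), chr16:33794288-33794326 (Muc13, plus strand) and chr9:44673147-44673185 (Treh, plus strand). Alpi, Muc13 and Treh were called higher, while Cela2a had a ratio of 1.93 (interval 1.54 to 2.45). The Treh call was lost under another scaling of the totals, and the reads of Cela2a are uncertain, as given below. Of the 46 digestive genes past the minimum 52.2% were called higher, so these 4 genes are too few to link the letters with the calls. The E-box CANCTG was in 59.5% of the windows and 44.8% of all, and the FOXA letters TGTTTAC in 2.4% and 3.2%, counted on either strand. These matches describe letters in the windows and no measured binding.

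All 50 genes had reads in both libraries. In the MHC-II high library 46 reached 1 CPM and 23 reached 10 CPM, and in the MHC-II low library 37 and 13 did. Of the 46 genes past the minimum, 24 were called higher in MHC-II high cells, against 14.5% of the 17438 genes compared, and 1 was called lower, against 10.9%. Of these 46 genes, 9 passed the minimum through the MHC-II high library alone and so had to be higher there. Among the 37 with at least 1 CPM in both libraries, 17 were called higher and 1 lower, against 12.2% and 9.87% of the 16162 genes so restricted, with a median log2 ratio of 0.98 against −0.03. With no minimum, which keeps all 50 genes, 24 were called higher against 12.4% of 22947 genes, and 2 lower against 16.7%. The median log2 ratio of the 46 was 1.29, with quartiles of 0.52 and 2.47, while over all genes compared it was −0.01, with quartiles of −0.58 and 0.65. The genes were chosen with earlier results of these data known, so these counts and medians describe the list and do not test it. In these bulk libraries, more cells of a type and more RNA per cell cannot be told apart.

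**Figure D1:**
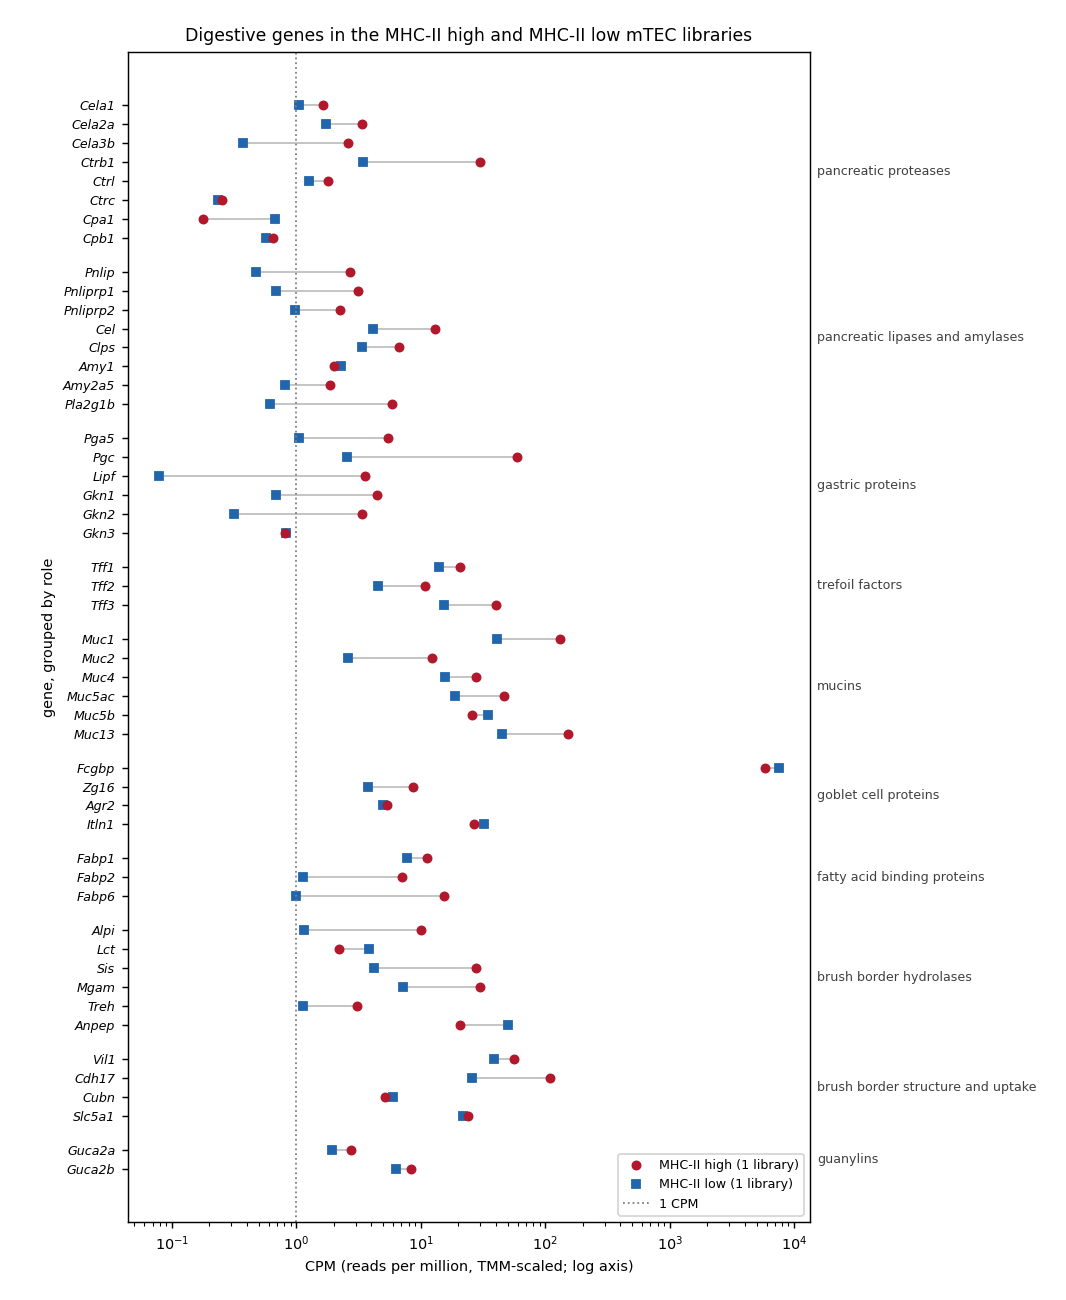
Level of each of the 50 digestive genes in the MHC-II high (circles) and MHC-II low library (squares), in TMM-scaled CPM on a log axis, grouped by role, with 1 library per group. Most circles lie right of their squares, Fcgbp stands far above the others at 5863 CPM in the MHC-II high and 7573 CPM in the MHC-II low library, and Lipf has the lowest level of all in the MHC-II low library, 0.0788 CPM.

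The gastric genes had the largest median log2 ratio of the role groups, 3.43. The 5 of 6 genes that passed the minimum were all called higher, against 14.5% of all genes compared. Of these 5 genes, 3 had passed through the MHC-II high library alone. Pgc, the gene of the pepsin precursor progastricsin, was at 59.2 CPM in the MHC-II high and 2.54 CPM in the MHC-II low library, on 9042 and 129 reads. Its ratio was 23.3 (interval 19.6 to 27.9), and per length it ranked 1651 of the 23411 genes in the MHC-II high and 13213 in the MHC-II low library. Lipf, gastric lipase, had 547 reads in the MHC-II high library but only 4 in the MHC-II low one, so its ratio of 45.4 has wide limits, 17.6 and 167. Pga5, another pepsinogen gene, was at 5.46 CPM in the MHC-II high and 1.06 CPM in the MHC-II low library, a ratio of 5.14 (3.90 to 6.90).

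Gastrokines are secreted by surface mucous cells of the stomach, and their genes Gkn1, Gkn2 and Gkn3 lie side by side on chromosome 6. Gkn1 was at 4.49 CPM in the MHC-II high and 0.689 CPM in the MHC-II low library, and Gkn2 at 3.40 and 0.315 CPM in the same order. Both were called higher, with ratios of 6.51 (4.64 to 9.43) and 10.8 (6.57 to 19.0). Gkn3, next to them, stayed under the minimum in both, at 0.818 CPM in the MHC-II high and 0.827 CPM in the MHC-II low library. The flanking gene Antxr1, a matrix receptor gene, had a log2 ratio of −3.13, and Bmp10 on the other side was under the minimum. Lipf, Gkn1 and Gkn2 are the 3 gastric genes that passed the minimum through the MHC-II high library alone.

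Pancreatic proteases were more varied. Ctrb1, chymotrypsinogen B, was the most abundant, at 30.0 CPM in the MHC-II high and 3.43 CPM in the MHC-II low library, a ratio of 8.76 (7.53 to 10.3). The elastase gene Cela3b was at 2.62 CPM in the MHC-II high and 0.374 CPM in the MHC-II low library, a ratio of 7.01 (4.43 to 11.8). Its close copy Cela3a, which shares 10.1% of the Cela3b transcript's 50-base stretches, was under the minimum. Of the 8 proteases 5 passed the minimum, and only Ctrb1 and Cela3b were called higher, against 14.5% of all genes compared. Cela3b passed the minimum through the MHC-II high library alone. The elastase genes Cela1 and Cela2a and the chymotrypsin-like gene Ctrl had ratios of 1.54, 1.93 and 1.44, with intervals that lay below 2-fold or crossed it. Cela2a shares 25.6% of its 50-base stretches with the adjoining Ctrc and Casp9, so its reads are uncertain. Ctrc, Cpa1 and Cpb1 were under the minimum. The carboxypeptidase gene Cpa1 had 27 reads in the MHC-II high and 34 in the MHC-II low library, and is the second gene called lower when no minimum is used (ratio 0.264). Ctrc, chymotrypsin C, had 39 reads in the MHC-II high and 12 in the MHC-II low library, and RefSeq lists it as a transcribed pseudogene in build GRCm38.p6.

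Of the 8 lipase and amylase genes of the digestive glands, 4 were called higher and 0 lower, against 14.5% and 10.9% of all genes compared. However, 5 of the 8 passed the minimum through the MHC-II high library alone, 3 of the called genes among them (Pla2g1b, Pnlip and Pnliprp1), and of the 3 with at least 1 CPM in both libraries 1 was called, Cel. Pla2g1b, phospholipase A2, was furthest apart, at 5.90 CPM in the MHC-II high and 0.611 CPM in the MHC-II low library, with a ratio of 9.67 (6.76 to 14.3). Cel, the bile salt-activated lipase, was at 12.9 CPM in the MHC-II high and 4.12 CPM in the MHC-II low library, a ratio of 3.13 (2.71 to 3.62). Clps encodes colipase, the cofactor of pancreatic lipase, and had 6.70 CPM in the MHC-II high and 3.39 CPM in the MHC-II low library. Its ratio of 1.98 (1.68 to 2.34) was not wholly beyond 2-fold.

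Pancreatic lipase and its relatives form a run of 3 neighbouring genes on chromosome 19. Pnlip was at 2.68 CPM in the MHC-II high and 0.473 CPM in the MHC-II low library, Pnliprp1 at 3.11 and 0.689 CPM, and Pnliprp2 at 2.23 and 0.985 CPM. The ratios along the run were 5.66 (3.75 to 8.94), 4.52 (3.20 to 6.56) and 2.27 (1.68 to 3.11), and Pnliprp2 was not called. The genes on either side, Ccdc172 and 1700019N19Rik, had at most 28 reads in either library.

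The amylase genes did not pass the 2-fold rule. Amy2a5, a pancreatic amylase gene with 4 genomic copies summed, had 288 reads in the MHC-II high and 41 in the MHC-II low library, a ratio of 2.33 (1.68 to 3.32). It shares 57.2% of its 50-base stretches with other genes, above all the other Amy2a copies, so its level is uncertain. Amy1, the salivary amylase gene, was at 2.00 CPM in the MHC-II high and 2.30 CPM in the MHC-II low library; the log2 ratio of −0.20 changed sign under unscaled totals and under those behind the RPKM. The gene Rnpc3 covers 32.7% of its annotated exon bases on the same strand, so Amy1 reads are uncertain too.

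**Figure D2:**
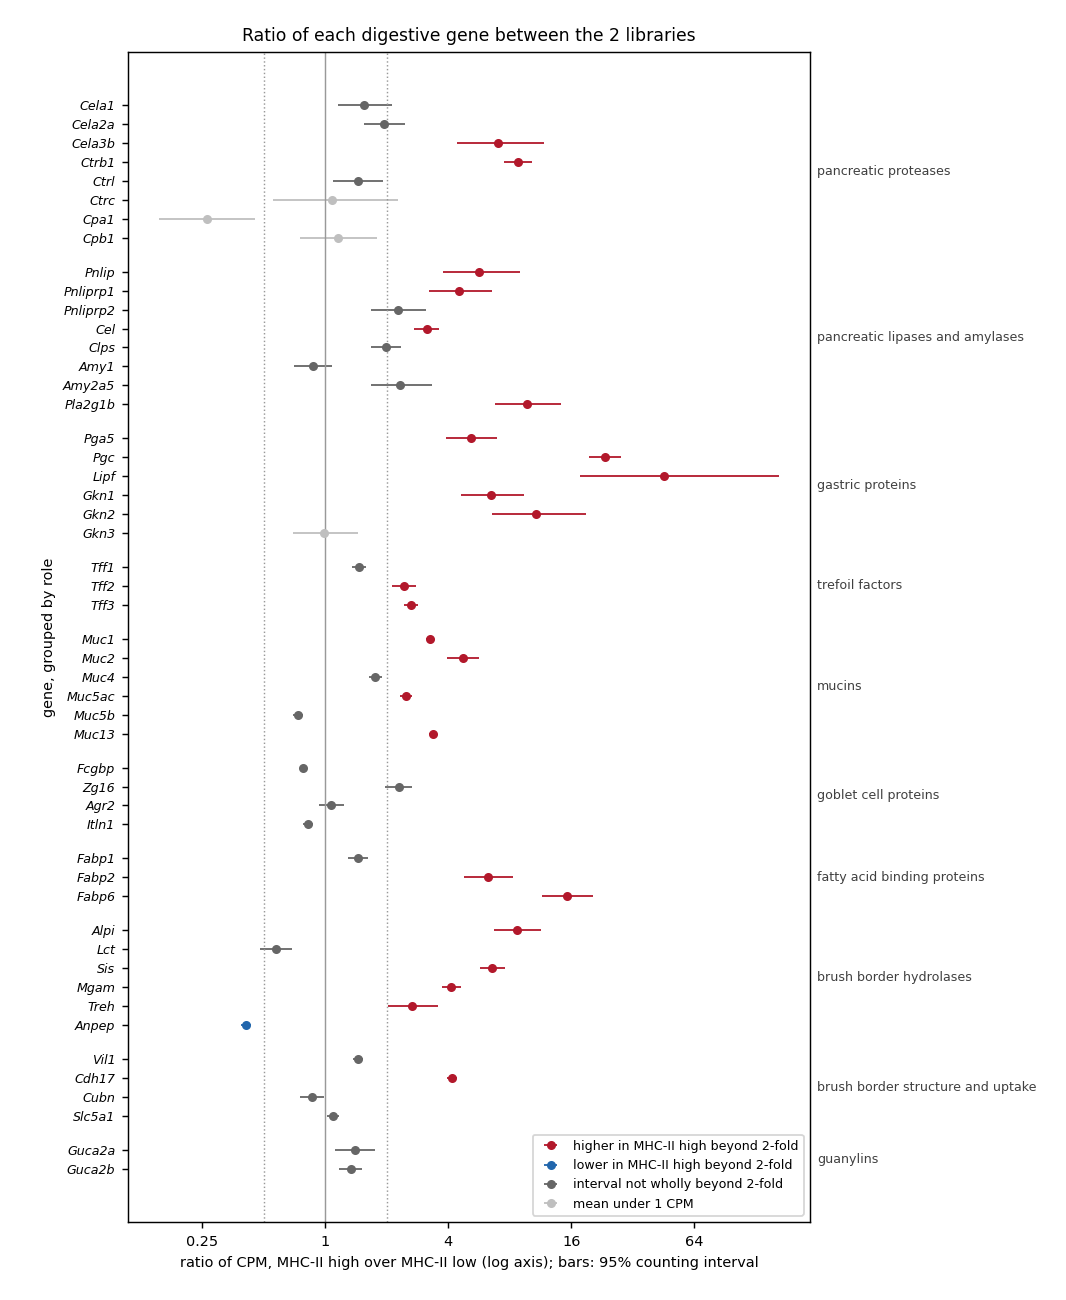
Ratio of CPM, MHC-II high over MHC-II low, for each of the 50 genes on a log axis, with 95% counting intervals from 1 library per group and dotted lines at 2-fold. The gastric genes Lipf, at 45.4, and Pgc, at 23.3, reach furthest right, and Anpep, at 0.408, is the only gene past the minimum whose whole interval lies left of the dotted line.

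Trefoil factors protect and repair mucosal surfaces, and their 3 genes are neighbours on chromosome 17. Tff3, the form of intestinal goblet cells, was at 40.2 CPM in the MHC-II high and 15.3 CPM in the MHC-II low library, a ratio of 2.62 (2.43 to 2.83). Per length it was the second most abundant of the 50 genes in both libraries. Tff2 had 10.9 CPM in the MHC-II high and 4.51 CPM in the MHC-II low library, a ratio of 2.42 (2.11 to 2.79). This call was lost when the totals were set by thymic epithelial genes, where its log2 ratio was 1.19. Tff1, with 20.7 CPM in the MHC-II high and 14.1 CPM in the MHC-II low library, had a ratio of 1.46 (1.35 to 1.59). Exons of an antisense gene, Gm15318, cover 31.4% of the Tff1 exon bases, and without strand their reads cannot be told apart. The flanking genes Abcg1 and Tmprss3 had log2 ratios of 0.18 and −0.25.

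Mucins coat the epithelium, some tethered to the cell membrane and some secreted as a gel. Of the 6 mucin genes 4 were called higher, against 14.5% of all genes compared. The membrane mucin genes Muc13 and Muc1 were the most abundant, at 152 and 132 CPM in the MHC-II high library and 45.2 and 40.6 CPM in the MHC-II low library. Their ratios were close, 3.36 (3.22 to 3.51) for Muc13 and 3.25 (3.10 to 3.40) for Muc1. The third membrane mucin gene, Muc4, had a ratio of 1.75 (1.63 to 1.89) and was not called.

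The gel-forming mucin genes Muc2, Muc5ac and Muc5b stand in that order on chromosome 7, and their ratios declined along the row. Muc2, the mucin of intestinal goblet cells, was at 12.4 CPM in the MHC-II high and 2.62 CPM in the MHC-II low library, a ratio of 4.72 (3.96 to 5.67). Muc5ac, the gastric surface mucin, was at 46.8 CPM in the MHC-II high and 18.8 CPM in the MHC-II low library with a ratio of 2.48 (2.32 to 2.66). Muc5b, an airway and salivary mucin, was at 25.7 CPM in the MHC-II high and 34.9 CPM in the MHC-II low library, and of the scalings tried, only the RPKM totals gave its log2 ratio of −0.44 the other sign. The next gene, Tollip, was near equal, with a log2 ratio of 0.05, and Muc6, at the other end, was not analysed here.

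None of the 4 goblet cell proteins passed the rule. Fcgbp, a large protein of intestinal mucus, was by far the most abundant of the 50 genes, with 896076 reads in the MHC-II high and 384473 in the MHC-II low library. It held 85.5% of the reads of all 50 genes in the MHC-II high and 94.5% in the MHC-II low library, and per length it ranked 36 of 23411 genes in the MHC-II high and 54 in the MHC-II low library. Its ratio was 0.774 (0.771 to 0.777), or −0.37 on the log2 scale, and RPKM totals made that 0.63. It shares 8.6% of its 50-base stretches with 9530053A07Rik. Sums over the 50 genes therefore follow this 1 gene: with it the sums were 6858 CPM in the MHC-II high and 8013 CPM in the MHC-II low library, and without it 995 and 440 CPM, a ratio of 2.26 (2.23 to 2.30).

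The other goblet cell genes differed among themselves. Zg16, a lectin of goblet cell granules, was at 8.70 CPM in the MHC-II high and 3.80 CPM in the MHC-II low library, and its ratio of 2.29 (1.97 to 2.67) fell just short of the 2-fold rule; it was called higher with unscaled totals, RPKM totals, TMM over all genes and at 1.5-fold. Agr2, a disulfide isomerase needed to fold mucins, had a ratio of 1.07 (0.929 to 1.24). Itln1, the lectin intelectin, was at 26.6 CPM in the MHC-II high and 32.3 CPM in the MHC-II low library, and the sign of its log2 ratio, −0.28, flipped under unscaled and under RPKM totals.

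**Figure D3:**
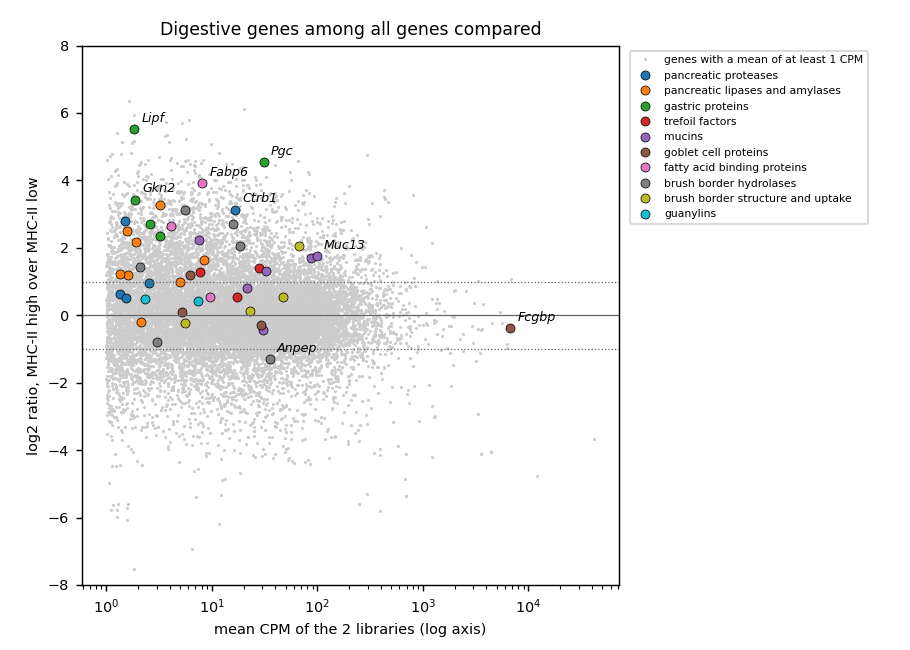
Log2 ratio, MHC-II high over MHC-II low, against the mean CPM of the 2 libraries (log axis) for the 17438 genes compared (grey) and the 46 digestive genes among them (coloured by role). Of the 46 digestive genes 39 lie above 0, and Fcgbp lies at the far right with a log2 ratio of −0.37.

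Fatty acid binding proteins carry lipids inside absorptive cells, and 2 of the 3 genes were called higher, against 14.5% of all genes compared. Fabp6, the bile acid carrier of the ileum, was at 15.3 CPM in the MHC-II high library, on 2333 reads, and had 51 reads in the MHC-II low library, a ratio of 15.2 (11.5 to 20.5) that came after Lipf and Pgc among the 50 genes. Fabp2, the intestinal form, was at 7.13 CPM in the MHC-II high and 1.14 CPM in the MHC-II low library and a ratio of 6.24 (4.79 to 8.27). Fabp1, shared by liver and gut, differed less, at 11.3 CPM in the MHC-II high and 7.82 CPM in the MHC-II low library and a ratio of 1.44 (1.29 to 1.61).

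Of 6 brush border hydrolases, 4 were called higher and 1 lower, against 14.5% and 10.9% of all genes compared. Alpi, the intestinal alkaline phosphatase, was at 10.1 CPM in the MHC-II high and 1.16 CPM in the MHC-II low library, a ratio of 8.66 (6.68 to 11.4). The starch- and sugar-splitting enzymes differed among themselves: sucrase-isomaltase, Sis, was at 27.8 CPM in the MHC-II high and 4.23 CPM in the MHC-II low library, and maltase-glucoamylase, Mgam, at 29.8 and 7.21 CPM. Their ratios were 6.56 (5.72 to 7.56) and 4.13 (3.72 to 4.61). Trehalase, Treh, had a ratio of 2.67 (2.03 to 3.58), which was not called when the totals were set by thymic epithelial genes. Lactase, Lct, was on the other side, at 2.20 CPM in the MHC-II high and 3.82 CPM in the MHC-II low library, a ratio of 0.575 (0.481 to 0.690) that RPKM totals moved above 1.

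Anpep, aminopeptidase N, was the 1 gene past the minimum called lower, at 20.5 CPM in the MHC-II high and 50.2 CPM in the MHC-II low library, a ratio of 0.408 (0.387 to 0.430). The call ended with unscaled totals, where its log2 ratio was −1.01 and the interval reached 2-fold, and with RPKM read totals (−0.29). This enzyme is also known from fibroblasts, vessels and myeloid cells. The 7 fibroblast and mural markers summed to 190 CPM in the MHC-II high and 1088 CPM in the MHC-II low library, and the 9 endothelial markers to 92.3 and 607 CPM in the same order. The sum of the 8 dendritic cell and macrophage markers went the other way, with 411 CPM in the MHC-II high and 112 CPM in the MHC-II low library. Lyz2 held most of that sum, and without it the markers came to 49.6 and 38.1 CPM in the same order. Of the 7 past the minimum 5 were called higher and 1 lower. The part of these cell types in the Anpep value was not tested.

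Among the genes of brush border structure and uptake, Cdh17, an intestinal cadherin, was at 109 CPM in the MHC-II high and 26.0 CPM in the MHC-II low library, a ratio of 4.17 (3.94 to 4.41). Vil1, the actin bundler villin, was at 55.9 CPM in the MHC-II high and 38.7 CPM in the MHC-II low library and a ratio of 1.44 (1.37 to 1.52). The sodium-glucose carrier gene Slc5a1 was near equal, with a ratio of 1.09 (1.02 to 1.17). Cubn, the receptor for the cobalamin-intrinsic factor complex, was slightly lower, at 5.12 CPM in the MHC-II high and 5.97 CPM in the MHC-II low library, and its log2 ratio of −0.22 flipped sign under unscaled and under RPKM totals. The guanylin genes Guca2a and Guca2b, which encode peptides that set salt and water secretion, are neighbours on chromosome 4 with almost the same ratios, 1.40 (1.12 to 1.76) and 1.33 (1.17 to 1.51). Their outer neighbours Foxj3 and Hivep3 had log2 ratios of 0.14 and 0.38.

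Other genes of the same organs, outside the 50, were taken from lists of known genes. Over all genes compared, 14.5% were called higher and 10.9% lower, or 12.2% and 9.87% with at least 1 CPM in both libraries. Of 15 further acinar genes 12 passed the minimum, and 4 were called higher and 0 lower: Prss1, Cuzd1, Try4 and Try5, with Try4 and Try5 named after their values were seen. All 4 passed the minimum through the MHC-II high library alone, and 0 of the 7 acinar genes with at least 1 CPM in both libraries were called. The trypsin gene Prss1 was at 4.67 CPM in the MHC-II high and 0.571 CPM in the MHC-II low library and the zymogen granule gene Cuzd1 at 6.04 and 0.414 CPM. Gp2, the most abundant of them and also a marker of microfold cells, was at 243 CPM in the MHC-II high and 490 CPM in the MHC-II low library, and its log2 ratio of −1.01 was not wholly beyond 2-fold. Of 10 further gastric genes with lines in both tables, 9 passed the minimum, with 6 called higher and 1 lower, the ghrelin gene Ghrl, at 3.02 CPM in the MHC-II high and 10.2 CPM in the MHC-II low library. The potassium channel subunit gene Kcne2 was at 6.12 CPM in the MHC-II high and 0.236 CPM in the MHC-II low library, and the proton pump subunit gene Atp4b at 6.15 and 0.748 CPM. Both are among 4 of the 6 called genes that passed through the MHC-II high library alone, and of the 5 with at least 1 CPM in both libraries 2 were called higher and 1 lower.

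Of 25 further brush border and absorptive genes 23 passed the minimum, 13 were called higher and 1 lower, with a median log2 ratio of 1.43. Of the 20 with at least 1 CPM in both libraries, 11 were called higher and 1 lower. Tmprss15, the enteropeptidase that activates trypsinogen, was at 6.46 CPM in the MHC-II high and 0.394 CPM in the MHC-II low library, a ratio of 16.4 (10.6 to 27.0), and passed through the MHC-II high library alone. The apolipoprotein gene Apob had a ratio of 7.61, Apoa4 one of 3.34, and the meprin gene Mep1a one of 4.21. The gene called lower was Mme, the peptidase neprilysin, with 6.41 CPM in the MHC-II high and 22.3 CPM in the MHC-II low library. Ghrl and Mme were picked after their values were seen. All 3 lists were chosen with earlier results of these data known.

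**Figure D4:**
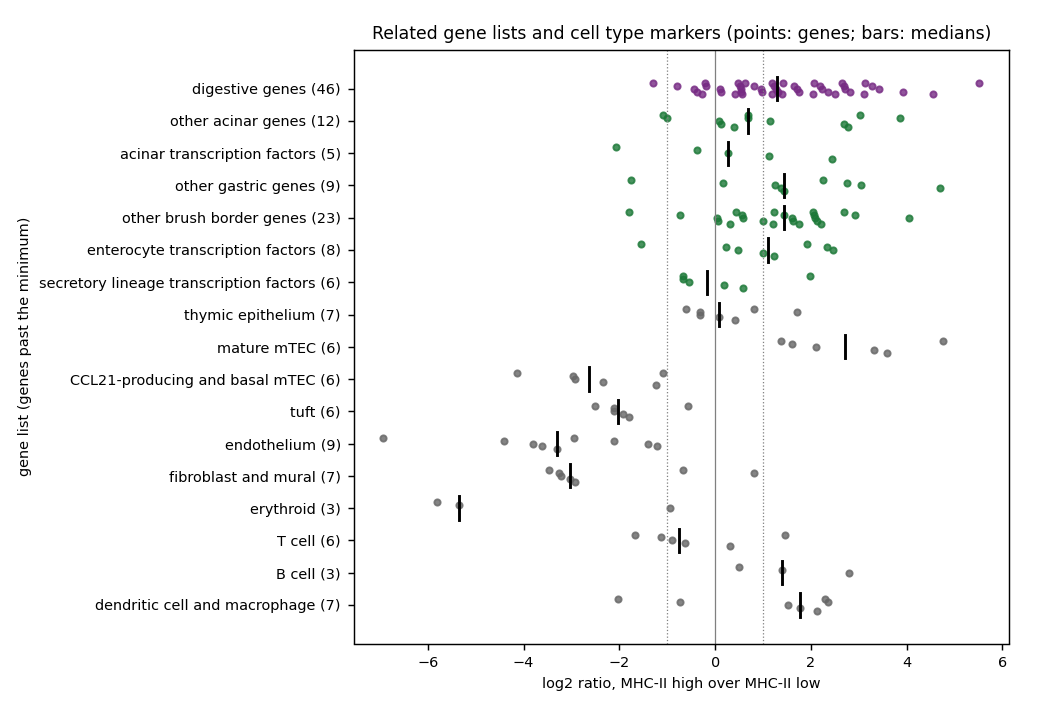
Log2 ratio, MHC-II high over MHC-II low, of the digestive genes (purple), related gene lists (green) and cell type markers (grey), with points for genes past the minimum, bars for list medians and numbers of genes in brackets. The digestive genes have a median of 1.29, the mature mTEC markers 2.71, and the endothelial markers −3.31.

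Transcription factors of these lineages did not all follow. Of 8 enterocyte factors, all past the minimum, 4 were called higher, Cdx1, Hnf4g and Maf among them, and 1 lower (Isx). Over all genes compared, 14.5% were called higher and 10.9% lower. Cdx1 was at 243 CPM in the MHC-II high and 48.0 CPM in the MHC-II low library, a ratio of 5.07 (4.87 to 5.29). Hnf4g had 52.6 CPM in the MHC-II high and 13.9 CPM in the MHC-II low library, and Hnf4a 9.21 and 7.90 CPM. Hnf4g, Hnf4a, Maf and Isx were picked after their values were seen. Of 6 acinar factors 5 passed the minimum, and 1 was called higher and 1 lower. Gata4 was higher, with a ratio of 5.42 (4.68 to 6.31). Rbpjl was lower, with 0.239 (0.176 to 0.321) and under 1 CPM in the MHC-II high library. Ptf1a, the factor that defines acinar cells, was at 2.19 CPM in the MHC-II high and 1.81 CPM in the MHC-II low library. Of 7 factors of secretory lineages 6 passed the minimum, and 1 was called higher and 0 lower. Foxa1 was the one called, with a ratio of 3.95 (3.71 to 4.21), and Foxa3 had a log2 ratio of −0.67. With so few genes, the acinar and secretory counts do not stand apart from the shares over all genes.

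Markers of other cells differed between the libraries as well. All 9 endothelial and 5 of 7 fibroblast and mural markers were called lower. Of the endothelial markers 1, Emcn, passed the minimum through the MHC-II low library alone and so had to be lower. Erythroid markers summed to 60.3 CPM in the MHC-II high and 2141 CPM in the MHC-II low library. Of the 7 dendritic cell and macrophage markers past the minimum 5 were called higher and 1 lower, Mpeg1, at 5.69 CPM in the MHC-II high and 23.2 CPM in the MHC-II low library, picked after its values were seen. Without Lyz2, which held most of their sum, these markers came to 49.6 CPM in the MHC-II high and 38.1 CPM in the MHC-II low library. Of 3 B cell markers 2 were called higher, of which 1, Ms4a1, passed the minimum through the MHC-II high library alone. The 3 summed to 9.55 CPM in the MHC-II high and 3.58 CPM in the MHC-II low library. The 7 T cell markers summed to 43.1 CPM in the MHC-II high and 58.8 CPM in the MHC-II low library. Of the 6 past the minimum 1 was called higher, Cd4, and 1 lower, Rag1. Without Cd4 the T cell markers came to 27.8 and 53.2 CPM in the same order. None of the markers was at 0 reads in either library. Within the epithelium, all 6 markers of CCL21-producing and basal mTEC were called lower, with sums of 1742 CPM in the MHC-II high and 15586 CPM in the MHC-II low library, and so were 5 of 6 tuft cell markers, with 420 and 1512 CPM. The part of these cells in the digestive gene ratios was not tested. The 7 thymic epithelial markers had log2 ratios from −0.61 (Krt18) to 1.70 (Foxn1), with a median of 0.08, so they disagree as a reference. Setting the library totals so that the median thymic epithelial marker was equal in both left 22 digestive genes called higher and 1 lower, with a median log2 ratio of 1.21. Over all genes so compared, 13.3% were called higher and 12.6% lower, with a median log2 ratio of −0.10.

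The scaling of the library totals sets the level of all ratios. Unscaled totals moved the median log2 ratio of all genes to 0.28 and the read totals behind the deposited RPKM moved it to 1.0. The digestive genes then had 28 of 46 and 34 of 42 called higher, against 19.8% and 45.2% of all genes, and 0 called lower against 7.3% and 2.9%. The gap between their median and that of all genes was 1.31 with TMM and 1.30 with unscaled totals. With RPKM totals it was 1.41 for the 42 genes then past the minimum, while the median of the same 46 genes was 2.30. All 24 genes called higher with TMM kept the call under both. On the deposited RPKM scale itself, Pgc was at 30.5 in the MHC-II high and 0.655 in the MHC-II low library, and Anpep at 4.27 and 5.23.

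**Figure D5:**
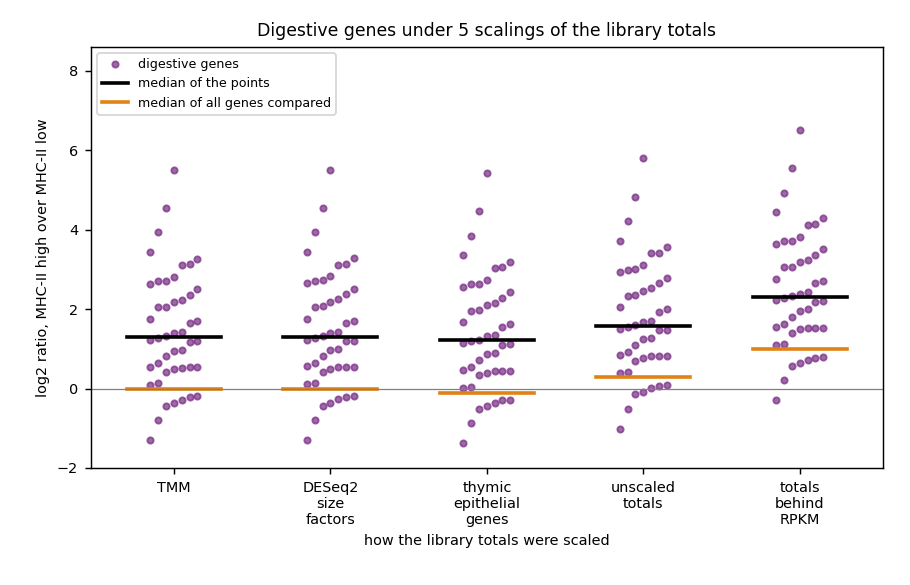
Log2 ratio, MHC-II high over MHC-II low, of the 46 digestive genes past the main minimum (points) under 5 scalings of the library totals, with the median of the points (black) and of all genes compared (orange). All points shift together: the median of all genes moves from −0.01 with TMM to 1.0 with the totals behind the RPKM values, and the median of the digestive genes lies above it under each.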

How the data were processed

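Poly-A RNA of 2 sorted mTEC fractions was measured in 1 library each, made per the series' design text from about 100 ng of RNA with a kit that does not keep strand, 15 PCR cycles and paired reads of 100 bases. The submitters' processing notes name mm9, CASAVA, Bowtie 1.0.0 and bedtools. Per the file headers, the authors deposited a whole-number read count, a length and an RPKM value per RefSeq transcript. The deposited RPKM equalled the count per length and per 1 total of 213854095 reads in the MHC-II high and 142330178 in the MHC-II low library. Counts added over all transcripts, several per gene included, came to 89.5% of that total in the MHC-II high but 52.0% in the MHC-II low library. A read on a stretch shared by transcripts of a gene may count more than once there, so these are not shares of distinct reads. The cause of this gap was not tested.

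Stray lines that were not transcripts (18 in the MHC-II high and 36 in the MHC-II low table) were left out, and 840 lines for further genomic copies in the MHC-II high table were summed, as the other table had already added them. Accessions in both tables with equal length (29800 of 29920) were named from RefSeq and GENCODE vM21, and of several transcripts of a gene, the one with most reads in the 2 libraries together stood for it. Totals were scaled with TMM (edgeR 4.0.16 in R 4.3.3) over genes with a mean of 1 CPM, which gave totals of 152834157 (MHC-II high) and 50769794 (MHC-II low). Ratios have exact 95% Clopper-Pearson intervals, which cover counting error only and take each read as independent. PCR reads without molecular identifiers are not independent molecules, so the intervals may be too narrow even for counting error. The calls were tested on simulated data that held counting error alone, so that test cannot speak to PCR copies or differences between samples.

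Reads of near-identical genes may be shared. The longest GENCODE transcript of each of the 50 genes was searched: 37 had no 50-base stretch in another gene's transcripts, and 5 had over 5% of theirs. These were not always the transcripts counted: for Muc2 the searched one had 2926 bases and the counted one 6734. Ctrc is among the 37, though 21.4% of its exon bases overlap Cela2a on the same strand. Alternatives were other scalings, minimums, folds and transcripts. Genes of other lists were named by reads and by size of the ratio, up to 4 a list, and neighbours of clustered members by position. The members and lists were chosen with earlier results of these data known. A transcription factor of the enterocyte list is not reported here.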

Additional observations from a re-analysis of the deposited data

How the results depend on the processing

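Among digestive genes called higher in the MHC-II high library, the count of 24 was 14 with a minimum of 5 CPM. Only 28 of them could be compared there, and 12.3% of all genes past that minimum were called higher. The count of digestive genes was 22 to 34 over the other alternatives except the next one. Among those with at least 1 CPM in both libraries, an alternative added after seeing the data, 17 of 37 were called, with a median log2 ratio of 0.98. The count called lower was 0 with unscaled and with RPKM read totals and 2 with no minimum. The median log2 ratio of 1.29 became 2.41 with RPKM read totals. Signs turned for Amy1 (0.08 with unscaled and 0.80 with RPKM totals), Itln1 (0.01 and 0.72) and Cubn (0.07 and 0.78), and with RPKM totals also for Muc5b (0.56), Fcgbp (0.63) and Lct (0.21). Over all genes, 2530 were higher and 1907 lower; the counts higher were 7232 with RPKM totals, 1652 with a minimum of 5 CPM and 3973 at 1.5-fold, and the counts lower 471 with RPKM totals, 3822 with no minimum and 3562 at 1.5-fold. The higher share of these calls was 57.0%, against 72.9% with unscaled totals, 93.9% with RPKM totals and 42.6% with no minimum. DESeq2 size factors, the longest transcript, and accessions of 1 table read as 0 changed no call among the 50 genes. No paired analysis was possible because each group has 1 library, and none could be left out. Depth limits the ratios of genes with few reads, above all Lipf with 4 in the MHC-II low library.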
